A study of Mus musculus with 44 samples.

Results

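The nuclear factor kappa-B (NF-kB) subunits and their inhibitors were followed as transcripts in mouse bone marrow-derived macrophages (BMDMs) by RNA-seq. The genes were taken by name as the 5 NF-kB subunit genes (Nfkb1, Nfkb2, Rel, Rela and Relb), the 3 classical inhibitor genes of the IκB family (Nfkbia, Nfkbib and Nfkbie), the atypical IκB gene Nfkbiz and the feedback inhibitor Tnfaip3. All 10 were found among the 24940 genes listed in each of the 4 count tables of the series, and all 10 had enough reads to be tested in each of them. The lowest count of any of them in any library was 40 reads, for Nfkbiz.

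NF-kB proteins act as dimers that wait in the cytoplasm bound to IκB proteins. When a receptor such as TLR4 activates the IκB kinase complex, IκB is phosphorylated and degraded, and the dimers move to the nucleus and switch on inflammatory genes. Several of the genes switched on encode NF-kB subunits and inhibitors themselves, which gives the pathway both a feed-forward arm and a negative feedback arm in macrophages.

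The study compared how BMDMs with and without the nuclear receptor corepressor NCoR answered extracellular signals. Cells came from C57BL/6 mice aged 8 to 12 weeks, and were sampled in 22 groups of 2 libraries, 44 libraries in all. In the first table (24 libraries), NCoR flox/flox BMDMs (WT) and NCoR flox/flox LysMCre BMDMs (NKO) received vehicle (Veh), KLA (Kdo2 lipid A, a TLR4 agonist), poly I:C (a TLR3 agonist), IFNβ (IFNb in the group names) or IL4 for 6 h, or RANKL, the osteoclast differentiation factor, for 12 h. The labels call all of these cells BMDMs, but the column headers of the RANKL libraries name osteoclasts in place of BMDMs. The methods describe 12 h in medium with 1% serum before treatment for BMDMs, and a separate osteoclast culture. In the second table (6 libraries), C57BL/6 BMDMs received vehicle, KLA, or KLA with the HDAC3 inhibitor RGFP966. In the third table (8 libraries), Pgc1b flox/flox BMDMs without Cre (Pgc1b_flox) or with LysMCre (Pgc1b_flox_Cre) received vehicle or KLA. In the last table (6 libraries), C57BL/6 BMDMs received vehicle in DMSO, KLA in DMSO, or KLA with the TBK1 inhibitor GSK8612 (TBK1i). Per the methods, KLA was given for 6 h, and both inhibitors from the start of the 12 h in 1% serum, before KLA. The column headers of the Pgc1b_flox_Cre_KLA libraries give no time, whereas those of every other KLA group give 6 h. Both WT and NKO cells carried the floxed Ncor1 alleles, and both Pgc1b genotypes carried the floxed Ppargc1b alleles. LysMCre is active across myeloid cells rather than in macrophages alone, and it is inserted in the Lyz2 gene, whose transcript was lower with Cre. Levels are in CPM, the reads of a gene per 1000000 reads in genes, scaled within each table by the trimmed mean of M-values, and Lyz2 stood at 4581 and 4626 CPM in NKO_Veh against 9288 and 9129 CPM in WT_Veh. The labels do not say whether the 2 libraries of a group came from separate animals, so the p-values measure the spread between those libraries, which may be technical.

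Each library held between 8323493 and 16783155 reads in genes. Ncor1 was lower in NKO than in WT libraries under every ligand, at 49.4 to 65.0 CPM against 133 to 215 CPM. Ppargc1b, the gene named by the Pgc1b labels, was not lower in the libraries labelled Pgc1b_flox_Cre. It stood at 3.75 and 3.41 CPM in Pgc1b_flox_Cre_Veh against 4.38 and 2.88 CPM in Pgc1b_flox_Veh, and at 10.3 and 8.74 CPM in Pgc1b_flox_Cre_KLA against 7.81 and 6.78 CPM in Pgc1b_flox_KLA. Reads over exons that were not deleted would still be counted, so this gene count does not test the deletion. The study examined PGC1β protein in BMDMs of both Pgc1b genotypes by immunoblot. In the first table, all vehicle, poly I:C, IFNb and IL4 libraries carried the same date stamp in their headers. The WT_KLA libraries were stamped 115 days earlier, the RANKL libraries of both genotypes 536 days earlier, and the NKO_KLA libraries 1401 days before the WT_KLA libraries. The NKO_KLA libraries and the 8 libraries of the third table had Y-linked transcripts and the other 34 had Xist, so at KLA the genotype cannot be told apart from the date stamp and the sex of the mice. Summed macrophage markers (8 genes) lay between 9547 and 24020 CPM in every library. The T cell markers summed to between 1.53 and 9.80 CPM, with Cd3d and Cd3g at 3 counts or fewer in every group. The B cell markers summed to between 0.311 and 8.63 CPM and the dendritic cell markers to between 0.134 and 35.3 CPM. The 6 osteoclast markers, of which Calcr was at 3 counts or fewer in every group, summed to between 72.9 and 1951 CPM, the 5 neutrophil markers to between 1.19 and 1079 CPM and the 5 fibroblast markers to between 0.0671 and 326 CPM.

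Promoter sequence is shown for the members whose upstream window held a match to the κB motif, the DNA element that NF-kB dimers bind, and for Rela, which rose least under KLA and whose window held none. RefSeq windows on GRCm38.p6 (the build called mm10 in the count tables) were found for 7 of the 10 genes, and Nfkb1, Relb and Nfkbiz are named only. Each window held up to 250 bases before a RefSeq start, the motif was searched as a run of 10 bases on both strands, and bases within a match, overlapping matches included, are in capitals.

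Nfkb2, chr19:46304487-46304736, plus strand, ending 958 bases before the start of the counted transcript: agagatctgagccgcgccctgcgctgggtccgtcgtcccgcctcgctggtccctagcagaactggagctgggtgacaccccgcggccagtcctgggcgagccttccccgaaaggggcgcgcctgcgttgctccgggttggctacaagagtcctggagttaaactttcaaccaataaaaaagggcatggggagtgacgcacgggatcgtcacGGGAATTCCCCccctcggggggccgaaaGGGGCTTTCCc

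Rel, chr11:23770971-23771219, minus strand: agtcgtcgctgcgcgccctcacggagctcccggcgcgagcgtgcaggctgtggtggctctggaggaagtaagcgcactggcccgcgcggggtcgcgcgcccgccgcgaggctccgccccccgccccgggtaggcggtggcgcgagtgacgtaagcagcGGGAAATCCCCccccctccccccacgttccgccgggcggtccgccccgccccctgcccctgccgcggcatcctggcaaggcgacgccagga

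Nfkbia, chr12:55492648-55492897, minus strand: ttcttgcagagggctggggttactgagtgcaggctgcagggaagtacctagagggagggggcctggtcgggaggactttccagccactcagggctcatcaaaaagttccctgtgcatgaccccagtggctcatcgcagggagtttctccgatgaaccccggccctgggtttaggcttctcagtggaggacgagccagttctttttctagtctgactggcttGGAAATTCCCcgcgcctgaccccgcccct

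Nfkbie, chr17:45555450-45555699, plus strand: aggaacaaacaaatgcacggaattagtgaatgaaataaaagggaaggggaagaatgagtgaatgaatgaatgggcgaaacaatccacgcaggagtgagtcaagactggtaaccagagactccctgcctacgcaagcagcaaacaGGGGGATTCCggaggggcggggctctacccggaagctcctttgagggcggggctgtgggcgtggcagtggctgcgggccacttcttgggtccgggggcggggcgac

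Tnfaip3, chr10:19015411-19015660, minus strand: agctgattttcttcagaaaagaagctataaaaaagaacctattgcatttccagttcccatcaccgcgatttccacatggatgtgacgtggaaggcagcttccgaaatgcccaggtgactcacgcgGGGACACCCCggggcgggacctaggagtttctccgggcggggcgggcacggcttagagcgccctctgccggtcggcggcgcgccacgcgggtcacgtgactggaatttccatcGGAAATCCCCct

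Rela, chr19:5637291-5637489, plus strand, no match: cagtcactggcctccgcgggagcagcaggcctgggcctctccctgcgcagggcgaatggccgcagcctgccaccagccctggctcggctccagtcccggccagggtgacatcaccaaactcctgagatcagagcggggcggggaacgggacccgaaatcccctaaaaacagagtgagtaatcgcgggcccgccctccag

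In these windows the Nfkb2 promoter held overlapping matches 39 to 29 bases before the RefSeq start and another 11 to 2 bases before it. The other Nfkb2 windows held 1 match each, 236 to 227 bases before the start of the counted transcript and 225 to 216 bases before a RefSeq start 235 bases after it. The Rel match lay 92 to 82 bases before the start, the Nfkbia match 29 to 20 bases before it and the Nfkbie match 106 to 97 bases before it. The Tnfaip3 promoter held matches 125 to 116 and 12 to 3 bases before its start. Of the 7 genes with a window, 5 held at least 1 match, and Rela and Nfkbib held none. Over the whole table, 1281 of 32851 windows (3.90%) and 1204 of 27025 genes (4.46%) held a match. A match describes the letters of the window and is not evidence of binding.

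The level of each gene varied widely over the 22 groups, and levels are given per kilobase of transcript (CPM per kb) where genes are compared with each other. Among the subunits, Nfkb1 had group means from 91.2 CPM ± 5.77 (SD, n = 2) in Pgc1b_flox_Cre_Veh to 1445 CPM ± 17.5 in TBK1i_KLA, a ratio of 15.9. Nfkb2 ranged from 46.4 CPM ± 0.482 in Veh to 1472 CPM ± 24.6 in TBK1i_KLA, a ratio of 31.7. Rel spanned 9.81 CPM ± 0.584 in NKO_RANKL to 217 CPM ± 5.76 in Pgc1b_flox_Cre_KLA, a ratio of 22.1. The other subunit genes spanned less, since Relb ran from 24.7 CPM ± 2.19 in Pgc1b_flox_Veh to 279 CPM ± 6.50 in TBK1i_KLA (ratio 11.3) and Rela from 77.1 CPM ± 1.39 in NKO_RANKL to 354 CPM ± 7.05 in TBK1i_KLA (ratio 4.59). Of the 21 steps between neighbours in the order of the 22 groups, the replicate values overlapped in 8 for Nfkb1, 7 for Nfkb2, 8 for Rel, 11 for Rela and 11 for Relb.

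Among the inhibitors, Nfkbiz, which encodes the inducible nuclear IκBζ, had the widest span of the 10 genes, from 2.92 CPM ± 0.170 (SD, n = 2) in NKO_IL4 to 1249 CPM ± 25.6 in Pgc1b_flox_Cre_KLA, a ratio of 427. Nfkbia, which encodes IκBα, the inhibitor that is rapidly resynthesised after NF-kB activation, ran from 31.5 CPM ± 2.23 in NKO_IL4 to 1836 CPM ± 46.1 in TBK1i_KLA, a ratio of 58.2. Tnfaip3, which encodes the ubiquitin-editing enzyme A20, ran from 34.8 CPM ± 0.835 in DMSO_Veh to 1949 CPM ± 33.8 in WT_KLA, a ratio of 55.9. The highest group was a KLA group for all members but Nfkbie, which encodes IκBε and was highest in WT_PolyIC at 523 CPM ± 10.3, against 13.5 CPM ± 1.54 in NKO_IL4 (ratio 38.6). Nfkbib, which encodes IκBβ, had the narrowest span of the inhibitors, from 21.2 CPM ± 0.529 in Veh to 283 CPM ± 10.6 in TBK1i_KLA (ratio 13.3). Values of neighbouring groups overlapped in 5 of the 21 steps for Nfkbiz, 6 for Tnfaip3, 8 for Nfkbia, 12 for Nfkbie and 13 for Nfkbib.

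**Figure D1:**
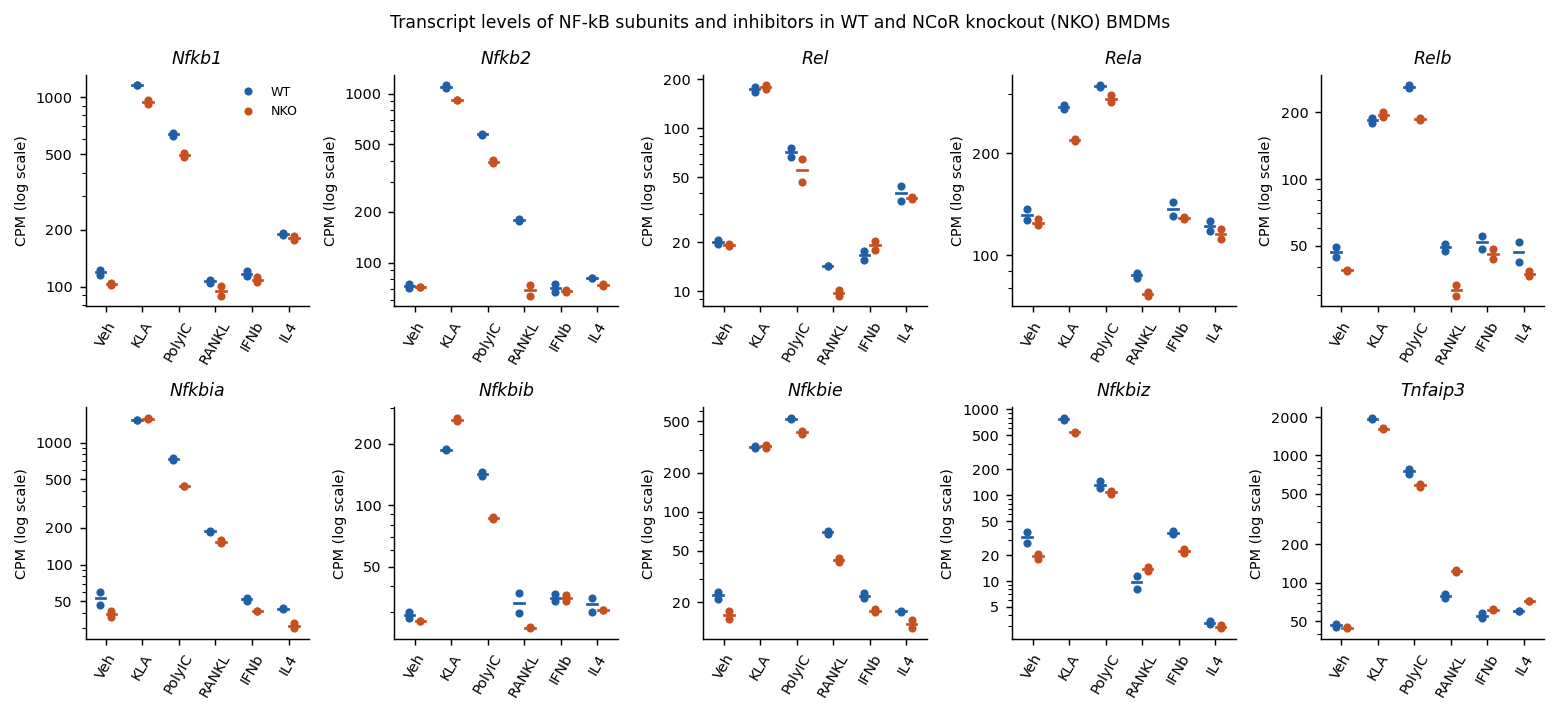
Transcript levels of the 10 genes (CPM, log axis) in WT and NKO BMDMs of the first table under vehicle and the 5 ligands, each point 1 library and each bar their mean. All 10 genes were higher in the KLA and poly I:C libraries than in the vehicle libraries of the same genotype, and Nfkbiz fell to 3.15 and 3.38 CPM in WT_IL4.

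The make-up of the subunit transcripts differed between resting and stimulated cells. In WT_Veh, Rela, which encodes the transactivating subunit p65, made up 37.5% of the CPM per kb of the 5 subunit genes, followed by Nfkb1, the gene for the p50 precursor, at 22.4%, Nfkb2, the gene for the p52 precursor, at 17.7%, Relb, the usual p52 partner, at 16.4% and Rel, which encodes c-Rel, at 6.02%. In WT_KLA the order was changed, with Nfkb2 at 39.2%, Nfkb1 at 32.1%, Rela at 11.5%, Relb at 9.54% and Rel at 7.68%. Rela ranked first in every vehicle and IFNb group, and Nfkb2 ranked first in every KLA and poly I:C group and in WT_RANKL. In WT_IL4, Nfkb1 was first at 30.1%, close to Rela at 29.4%, and Rel rose to 10.1%. The subunits summed to 130 CPM per kb ± 6.66 (SD, n = 2) in WT_Veh, 600 CPM per kb in WT_PolyIC and 881 CPM per kb ± 19.5 in WT_KLA.

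The 3 classical IκB transcripts were also set against the subunits, as the ratio of their summed CPM per kb to that of the 5 subunits. The ratio was 0.423 and 0.456 in the WT_Veh libraries and 1.38 and 1.34 in WT_KLA. It was 1.23 and 1.26 in WT_PolyIC and 1.16 and 1.15 in WT_RANKL. IFNb (0.429 and 0.475) overlapped vehicle, and WT_IL4 (0.329 and 0.326) lay below it. In the other tables every vehicle group lay between 0.387 and 0.514 and every KLA group between 1.11 and 1.90, so vehicle and KLA groups did not overlap. These ratios are of transcripts, and in bulk samples fewer expressing cells and less RNA per cell cannot be told apart.

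**Figure D2:**
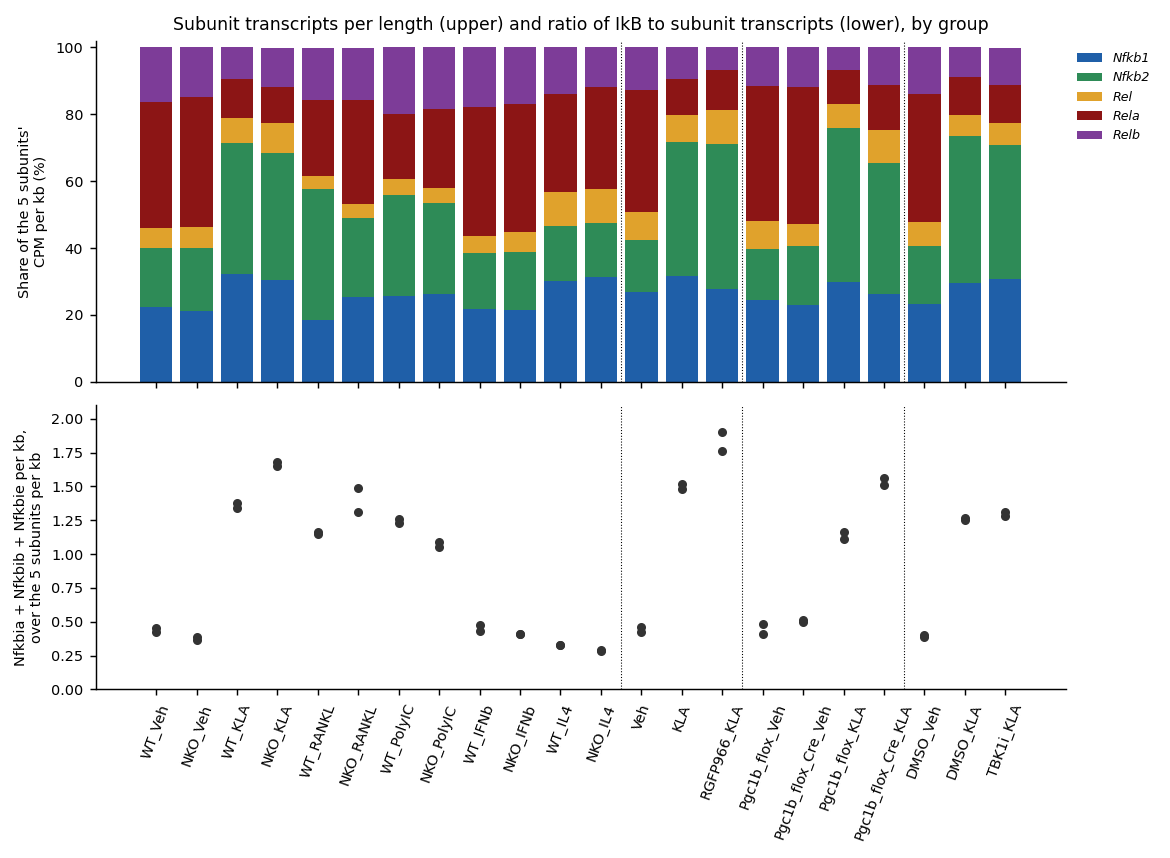
Upper panel, share of each of the 5 subunit genes in their summed CPM per kb (%, mean of 2 libraries) in the 22 groups, and lower panel, the ratio of the summed CPM per kb of Nfkbia, Nfkbib and Nfkbie to that of the subunits, each point 1 library. Rela took the largest share in vehicle groups (37.5% in WT_Veh) and Nfkb2 in KLA groups (39.2% in WT_KLA), and the ratio was 0.423 and 0.456 in WT_Veh against 1.38 and 1.34 in WT_KLA.

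KLA raised all 10 genes in WT cells. In this and the other comparisons a gene is called changed at an adjusted p below 0.05 (edgeR quasi-likelihood test, Benjamini-Hochberg adjustment over all genes tested) with a fold change above 1.5. Where members at an unadjusted p below 0.05 are counted, the share of all genes at that limit was not computed, so the count has no background. All 10 genes were called higher, against 25.4% of the 13407 genes tested, with a median log2 fold change of 3.54 against -0.14 for all genes. Of the subunits, Nfkb1 stood at 115 and 123 CPM in WT_Veh and at 1154 and 1157 CPM in WT_KLA, a log2 fold change of 3.28 ± 0.06 (SE, adjusted p = 9.28e-50). Nfkb2 went from 71.2 and 75.0 CPM to 1074 and 1122 CPM (3.91 ± 0.06, adjusted p = 1.22e-52). For both precursor genes every KLA library lay far above every vehicle library. Rel went from 19.6 and 20.7 CPM to 168 and 180 CPM (3.11 ± 0.10, adjusted p = 1.34e-22), and Relb from 44.4 and 49.1 CPM to 179 and 188 CPM (1.98 ± 0.07, adjusted p = 4.62e-33). Rela moved least of the 10, from 127 and 137 CPM to 270 and 278 CPM (1.06 ± 0.06, adjusted p = 9.05e-25), still with no overlap between groups.

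Of the inhibitors, Tnfaip3, Nfkbia and Nfkbiz rose by more than any subunit, while Nfkbie and Nfkbib lay within the range of the subunits. Tnfaip3 had the largest change under KLA, from 45.0 and 47.6 CPM in WT_Veh to 1925 and 1973 CPM in WT_KLA, a 42.1-fold rise (log2 5.40 ± 0.06, adjusted p = 4.57e-58). Nfkbia went from 46.8 and 59.7 CPM to 1532 and 1537 CPM, 28.8-fold (log2 4.85 ± 0.07, adjusted p = 2.62e-53). Both are negative regulators that act early in the feedback loop. Nfkbiz went from 28.0 and 37.7 CPM to 745 and 798 CPM, 23.5-fold (log2 4.55 ± 0.11, adjusted p = 1.22e-16), Nfkbie from 21 and 23.9 CPM to 319 and 309 CPM, 14.0-fold (log2 3.80 ± 0.07, adjusted p = 7.04e-49), and Nfkbib from 30.0 and 27.9 CPM to 187 and 185 CPM, 6.43-fold (log2 2.69 ± 0.08, adjusted p = 2.00e-39). No inhibitor had overlapping vehicle and KLA libraries. The WT_KLA libraries carried a different date stamp from WT_Veh, but in the other 3 tables vehicle and KLA were stamped alike. The fibroblast markers summed to 97.1 and 88.1 CPM in WT_Veh and to 0.819 and 1.33 CPM in WT_KLA, where Col1a1, Col1a2, Col3a1 and Pdgfra were at 3 counts or fewer, and the macrophage markers to 17188 and 17618 CPM and to 20502 and 20694 CPM. Their part in the KLA result was not tested.

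In those tables the same 10 of 10 genes were called higher under KLA. The background of genes called higher was 27.9% in the second table, 22.8% in the Pgc1b_flox comparison and 29.6% in the DMSO comparison, and the median log2 fold change of the 10 genes was 3.44, 3.72 and 3.83 in turn, against -0.07, -0.05 and 0.02 for all genes. Tnfaip3 had log2 fold changes of 5.48 ± 0.07 (SE) in KLA against Veh, 4.97 ± 0.08 in Pgc1b_flox and 5.52 ± 0.05 in DMSO. Nfkbia had 5.27 ± 0.07, 4.90 ± 0.08 and 5.16 ± 0.05, and Nfkb2 had 4.32 ± 0.07, 4.75 ± 0.07 and 4.40 ± 0.04. The largest change of the 10 was that of Tnfaip3 in 2 of these tables and that of Nfkbiz in Pgc1b_flox, which went from 10.4 and 10.1 CPM to 620 and 608 CPM (5.90 ± 0.08). Rela had the smallest in each, at 1.23 ± 0.06, 1.16 ± 0.07 and 1.30 ± 0.05.

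Poly I:C also raised all 10 genes in WT cells, against 22.2% of genes called higher. Nfkbie moved most, from 21 and 23.9 CPM in WT_Veh to 516 and 530 CPM in WT_PolyIC (log2 4.54 ± 0.07 SE, edgeR adjusted p = 5.73e-53). Tnfaip3 rose to 716 and 782 CPM (4.02 ± 0.06) and Nfkbia to 716 and 742 CPM (3.77 ± 0.07). Nfkbiz, by contrast, reached 120 and 145 CPM (2.01 ± 0.12), well below its 745 and 798 CPM in WT_KLA. Of the subunits, Nfkb2 reached 578 and 572 CPM (2.98 ± 0.06), Relb 266 and 258 CPM (2.49 ± 0.07), Nfkb1 620 and 650 CPM (2.41 ± 0.06), Rel 66.2 and 76.1 CPM (1.82 ± 0.11) and Rela 318 and 313 CPM (1.26 ± 0.06). Relb, Rela and Nfkbie therefore lay above their WT_KLA libraries, and the other 7 genes lay below them. How many of all genes were separated in this way was not counted. KLA and poly I:C share the WT_Veh libraries and carried different date stamps, and the difference between them was not tested.

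RANKL changed 6 of the 10 genes in WT cells, 4 higher and 2 lower, against 24.1% of genes called higher and 19.8% called lower. Among the subunits, Nfkb2 rose from 71.2 and 75.0 CPM to 181 and 176 CPM (log2 1.28 ± 0.06 SE, edgeR adjusted p = 1.11e-27), and Rela fell from 127 and 137 CPM to 89.0 and 85.8 CPM (-0.59 ± 0.06, adjusted p = 1.37e-13). Neither overlapped vehicle, and Rela fell below the fold threshold without WT_Veh replicate 2 (-0.54), without WT_RANKL replicate 2 (-0.57) or with genes filtered on a mean of 5 CPM (-0.57). Nfkb1 (105 and 109 CPM), Rel (14.3 and 14.3 CPM) and Relb (50.9 and 47.4 CPM) were not called, with log2 values of -0.15, -0.49 and 0.07.

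The classical IκB genes Nfkbia and Nfkbie rose under RANKL. Nfkbia went from 46.8 and 59.7 CPM to 190 and 186 CPM (log2 1.82 ± 0.07 SE, edgeR adjusted p = 5.64e-32) and Nfkbie from 21 and 23.9 CPM to 67.4 and 70.8 CPM (1.62 ± 0.08, adjusted p = 9.45e-28). Tnfaip3 rose from 45.0 and 47.6 CPM to 81.5 and 76.4 CPM (0.77 ± 0.06), while Nfkbiz fell from 28.0 and 37.7 CPM to 8.04 and 11.4 CPM (-1.76 ± 0.17, adjusted p = 4.56e-08). Nfkbiz and Nfkbia thus moved in opposite directions. Nfkbib was not called, at 37.0 and 29.6 CPM. RANKL was given for 12 h and vehicle for 6 h, the date stamps differed and the headers name osteoclasts, so ligand, time, stamp and culture cannot be told apart here. The neutrophil markers summed to 806 and 758 CPM in WT_RANKL and to 1079 and 1030 CPM in NKO_RANKL, against at most 22.5 CPM in any library of the other groups, and Ly6g, the defining neutrophil gene, was at 3 counts or fewer in all other groups. The fibroblast markers summed to 221 and 195 CPM in WT_RANKL against 97.1 and 88.1 CPM in WT_Veh, and the osteoclast markers to 188 and 181 CPM against 132 and 147 CPM. The part of these cells in the RANKL results was not tested.

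IFNb changed none of the 10 genes in WT cells by the edgeR test, against 6.47% of genes called in either direction. At an unadjusted p below 0.05 there were 3, and DESeq2 called 0. Tnfaip3 stood at 57.7 and 53.0 CPM against 45.0 and 47.6 CPM in WT_Veh (log2 0.26 ± 0.07 SE, adjusted p = 0.00200) and Nfkbib at 33.8 and 36.7 CPM against 30.0 and 27.9 CPM (0.28 ± 0.08, adjusted p = 0.00821). These libraries did not overlap vehicle, but both differences were smaller than 1.5-fold. The other 8 genes had log2 fold changes between -0.28 and 0.16.

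IL4 changed 3 of the 10 genes in WT cells, 2 higher and 1 lower, against 6.63% of genes called higher and 6.46% called lower. Nfkbiz fell 10.0-fold, from 28.0 and 37.7 CPM to 3.15 and 3.38 CPM (log2 -3.33 ± 0.22 SE, edgeR adjusted p = 1.04e-09). The subunit genes Rel and Nfkb1 rose. Rel went from 19.6 and 20.7 CPM to 35.6 and 44.4 CPM (0.99 ± 0.12, adjusted p = 2.10e-08) and Nfkb1 from 115 and 123 CPM to 191 and 188 CPM (0.67 ± 0.06, adjusted p = 2.80e-15). None of the 3 overlapped vehicle. Below the fold threshold, Tnfaip3 stood at 60.1 and 60.3 CPM (0.38 ± 0.07), Nfkbia at 43.0 and 43.9 CPM (-0.29 ± 0.08) and Nfkbie at 16.9 and 17.1 CPM (-0.41 ± 0.10), while Nfkb2, Rela, Relb and Nfkbib had log2 values between -0.11 and 0.18.

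**Figure D3:**
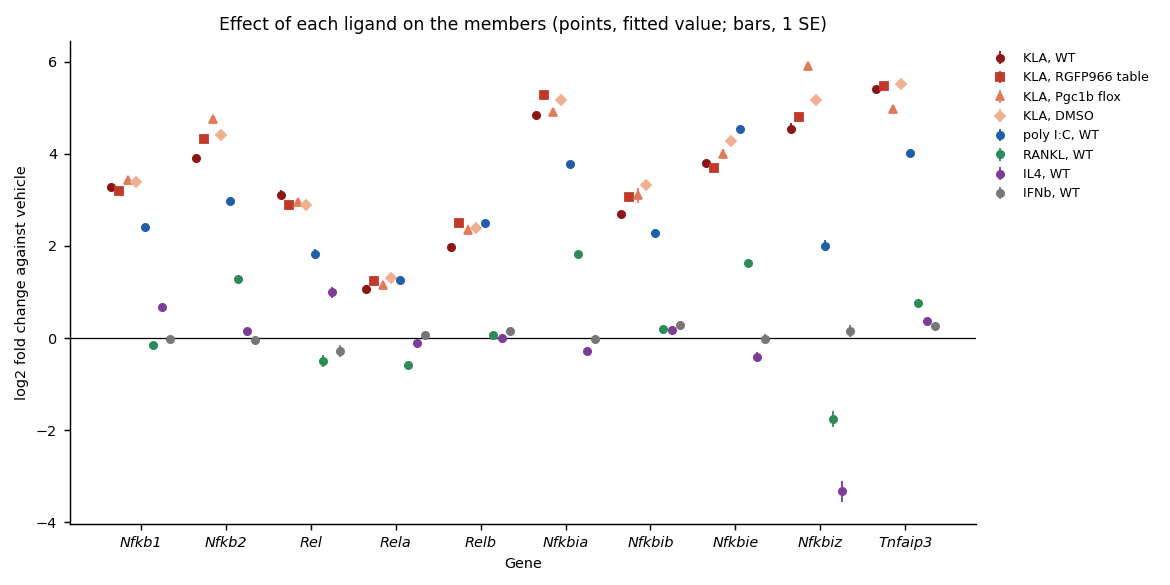
Log2 fold change of each gene against the vehicle group of its own table (fitted value, bars 1 SE) for the 5 ligands in WT BMDMs and for KLA in the other 3 tables. Tnfaip3 had the largest KLA value in the first table (5.40) and Rela the smallest (1.06), and Nfkbiz fell under IL4 (-3.33) and RANKL (-1.76).

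Loss of NCoR in vehicle-treated cells lowered 1 of the 10 genes, against 3.80% of genes called lower, although all 10 fitted values were below 0 (median log2 -0.16 against -0.01 for all genes). Nfkbiz stood at 28.0 and 37.7 CPM in WT_Veh and at 20.8 and 18.0 CPM in NKO_Veh (log2 -0.77 ± 0.14 SE, edgeR adjusted p = 8.94e-04), with no overlap. Without WT_Veh replicate 2, the higher library, the value was -0.54 (adjusted p = 8.29e-04), which is below the fold threshold. Nfkbie (14.8 and 17 CPM in NKO_Veh) and Nfkbia (41.9 and 37.0 CPM) had log2 values of -0.49 ± 0.09 and -0.44 ± 0.08, also below it. The osteoclast markers summed to 806 and 818 CPM in NKO_Veh against 132 and 147 CPM in WT_Veh, and the macrophage markers, which include Lyz2, to 11599 and 11846 CPM against 17188 and 17618 CPM. Their part in this difference was not tested.

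Under IFNb, Nfkbiz was again the gene called, at 38.0 and 35.4 CPM in WT_IFNb and 23.8 and 21.4 CPM in NKO_IFNb (log2 -0.70 ± 0.14 SE, edgeR adjusted p = 0.00228), against 1.94% of genes called lower. Under IL4, none of the 10 was called by edgeR, against 4.24% of all genes, with 5 at an unadjusted p below 0.05 and 0 by DESeq2. Nfkbiz stood at 3.15 and 3.38 CPM in WT_IL4 and 2.80 and 3.04 CPM in NKO_IL4 (-0.16 ± 0.36), and Nfkbia at 43.0 and 43.9 CPM against 33.1 and 30.0 CPM (-0.46 ± 0.08). Whether the effect of the genotype differed from that at vehicle was tested as an interaction, in which edgeR called none of the 10 under IFNb or under IL4 (background 0.604% for each), with 1 at an unadjusted p below 0.05 in each and 0 by DESeq2. The osteoclast markers summed to 632 and 670 CPM in NKO_IFNb against 111 and 114 CPM in WT_IFNb, and to 584 and 569 CPM in NKO_IL4 against 112 and 109 CPM in WT_IL4, and their part was not tested.

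Under KLA, none of the 10 genes was called between NKO and WT by edgeR, against 40.0% of all genes, and 0 were called by DESeq2. At an unadjusted p below 0.05 there were 6 of the 10, a count without a background. The median absolute log2 fold change was 0.26 for the 10 genes and 0.61 for all genes. Nfkbiz stood at 745 and 798 CPM in WT_KLA and 544 and 533 CPM in NKO_KLA (log2 -0.52 ± 0.09 SE, adjusted p = 7.97e-05). Nfkbib stood at 187 and 185 CPM in WT_KLA and at 257 and 267 CPM in NKO_KLA (0.49 ± 0.06, adjusted p = 6.12e-10). Both differences were beyond the spread between libraries but below 1.5-fold. The subunits Nfkb1 (970 and 919 CPM in NKO_KLA), Nfkb2 (919 and 910 CPM) and Rela (217 and 221 CPM) had values of -0.29, -0.26 and -0.32, and Tnfaip3 (1629 and 1619 CPM) of -0.26. Nfkbia (1594 and 1554 CPM), Nfkbie (312 and 327 CPM), Rel (184 and 173 CPM) and Relb (200 and 190 CPM) lay between 0.02 and 0.09. As the interaction of genotype with KLA, 1 of the 10 was called, against 36.9% of all genes, namely Nfkbib at 0.59 ± 0.11 (adjusted p = 3.87e-06). Its value was 0.54 without WT_Veh replicate 1, 0.57 without NKO_KLA replicate 2 and 0.56 with DESeq2, all below the fold threshold. The osteoclast markers summed to 322 and 323 CPM in NKO_KLA against 144 and 150 CPM in WT_KLA. The dendritic cell markers summed to 35.3 and 31.1 CPM in NKO_KLA against 4.26 and 4.67 CPM in WT_KLA. The macrophage markers, which include Lyz2, summed to 13975 and 13758 CPM against 20502 and 20694 CPM. Lyz2 alone, the gene that holds the Cre, stood at 3094 and 3160 CPM against 8985 and 9229 CPM. The part of these markers was not tested.

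Since the NKO_KLA libraries differed from WT_KLA in date stamp and sex, they were also set against the KLA groups of the other tables in a joint fit of 11036 genes, although those groups differ from NKO_KLA in table as well as genotype. Nfkbiz was called lower against KLA (761 and 773 CPM, log2 -0.82 ± 0.06 SE, edgeR adjusted p = 3.17e-20), where 46.3% of genes were called in either direction. Against DMSO_KLA, where 41.0% of genes were called, Nfkbiz (918 and 966 CPM, -0.86 ± 0.06, adjusted p = 3.27e-21) and Nfkb2 (1433 and 1444 CPM, -0.71 ± 0.06, adjusted p = 5.60e-18) were called. Against Pgc1b_flox_KLA, the only KLA reference that was also Y-positive, Nfkbiz was not called (620 and 608 CPM, -0.21 ± 0.06). There Relb was called higher in NKO_KLA, against 36.5% of genes called, from 136 and 117 CPM in Pgc1b_flox_KLA (0.61 ± 0.07, adjusted p = 1.29e-10), but not without NKO_KLA replicate 1 (0.57) or Pgc1b_flox_KLA replicate 2 (0.50). The NKO_KLA difference in Nfkbiz thus depended on the reference. That in Nfkbib did as well, at -0.08 ± 0.06 against DMSO_KLA (268 and 266 CPM), 0.25 ± 0.06 against KLA and 0.40 ± 0.07 against Pgc1b_flox_KLA, none called.

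**Figure D4:**
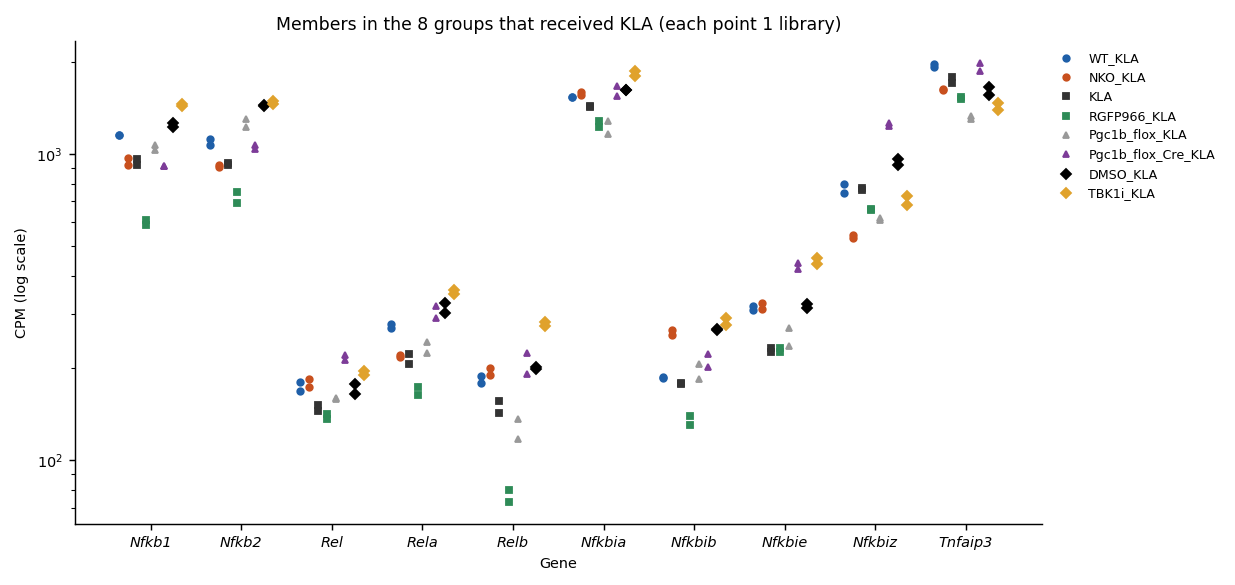
CPM of the 10 genes in the 8 groups that received KLA, each point 1 library, scaled within its own table. Nfkbiz was at 544 and 533 CPM in NKO_KLA and at 1231 and 1267 CPM in Pgc1b_flox_Cre_KLA, and lay between 608 and 966 CPM in the 6 other groups.

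Under poly I:C, 2 of the 10 genes were called lower in NKO cells, against 2.92% of genes called lower, and all 10 fitted values were below 0 (median log2 -0.36 against 0.005 for all genes). Both were classical IκB genes. Nfkbia stood at 716 and 742 CPM in WT_PolyIC and 444 and 445 CPM in NKO_PolyIC (log2 -0.71 ± 0.06 SE, edgeR adjusted p = 3.23e-15) and Nfkbib at 145 and 139 CPM against 87.0 and 85.3 CPM (-0.72 ± 0.07, adjusted p = 8.49e-13). No libraries overlapped. Of the subunits, Nfkb2 (578 and 572 CPM against 388 and 404 CPM, -0.54 ± 0.05) and Relb (266 and 258 CPM against 188 and 185 CPM, -0.49 ± 0.06) came nearest the fold threshold. These libraries shared their date stamp. The osteoclast markers summed to 1951 and 1926 CPM in NKO_PolyIC against 242 and 229 CPM in WT_PolyIC, and their part in the difference was not tested. In the interaction with poly I:C, 1 of the 10 was called, against 3.24% of all genes, which was Nfkbib at -0.62 ± 0.11 (adjusted p = 5.63e-05), or -0.57 without WT_Veh replicate 2, below the threshold. For Nfkbib the NKO difference was thus -0.72 under poly I:C and 0.49 under KLA against WT_KLA, or -0.08 to 0.40 against the other KLA references.

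Under RANKL, 4 of the 10 genes were called between the genotypes, 3 lower and 1 higher in NKO cells, against 6.99% of genes called lower and 6.21% called higher. Nfkb2, the only subunit called higher in WT_RANKL than in WT_Veh, stood at 181 and 176 CPM in WT_RANKL and 63.8 and 74.3 CPM in NKO_RANKL (log2 -1.37 ± 0.06 SE, edgeR adjusted p = 1.63e-26), overlapping its 71.5 and 71.7 CPM in NKO_Veh. Relb, which pairs with the product of Nfkb2, stood at 50.9 and 47.4 CPM against 29.7 and 33.1 CPM (-0.65 ± 0.09, adjusted p = 7.31e-09). Both subunits of the non-canonical dimer were lower in NKO_RANKL, with no overlap, though Relb was below the fold threshold without NKO_RANKL replicate 1 (-0.57). At vehicle Relb was also lower in NKO, below the fold threshold (-0.27 ± 0.08, adjusted p = 0.00756), whereas Nfkb2 had -0.03 ± 0.06. Nfkbie was lower too, at 67.4 and 70.8 CPM against 41.0 and 43.7 CPM (-0.71 ± 0.07, adjusted p = 2.73e-12), whereas Tnfaip3 was higher, at 81.5 and 76.4 CPM in WT_RANKL and 121 and 127 CPM in NKO_RANKL (0.65 ± 0.06, adjusted p = 1.04e-13). Nfkbiz stood at 8.04 and 11.4 CPM in WT_RANKL and 13.2 and 14.7 CPM in NKO_RANKL (0.52 ± 0.21, adjusted p = 0.0640). The subunits summed to 143 CPM per kb ± 2.37 (SD, n = 2) in WT_RANKL and 91.7 CPM per kb ± 6.07 in NKO_RANKL, with Nfkb2 at 39.2% and 23.6% of them.

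The interaction of genotype with RANKL was called for 3 of the 10 genes, against 14.2% of all genes. Nfkb2 had -1.34 ± 0.09 (log2, SE, edgeR adjusted p = 7.91e-19), Nfkbiz 1.29 ± 0.25 (adjusted p = 9.39e-04) and Tnfaip3 0.72 ± 0.09 (adjusted p = 4.44e-09). Each compares the genotype difference at RANKL with that at vehicle. Relb and Nfkbie were not called in the interaction, and their NKO against WT values at vehicle were -0.27 ± 0.08 and -0.49 ± 0.09. The RANKL and vehicle libraries also differed in time, date stamp and culture, which cannot be told apart from the ligand. WT_RANKL and NKO_RANKL shared their date stamp, but neutrophil, fibroblast and osteoclast markers were higher in NKO_RANKL than in WT_RANKL (neutrophil sums 1079 and 1030 CPM against 806 and 758 CPM, fibroblast sums 230 and 326 CPM against 221 and 195 CPM, osteoclast sums 241 and 361 CPM against 188 and 181 CPM), and their part in these differences was not tested.

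RGFP966, given from 12 h before KLA, lowered 2 of the 10 genes, both subunits, relative to KLA alone, against 9.54% of genes called lower. All 10 fitted values were below 0 (median log2 -0.29 against 0.03). Relb stood at 156 and 143 CPM in KLA and 73.3 and 80.2 CPM in RGFP966_KLA (log2 -0.96 ± 0.07 SE, edgeR adjusted p = 1.38e-20) and Nfkb1 at 963 and 922 CPM against 608 and 586 CPM (-0.66 ± 0.05, adjusted p = 5.57e-18), with no overlap. Nfkbie stood at 233 and 226 CPM against 232 and 225 CPM (-0.01 ± 0.06) and Rel at 151 and 145 CPM against 142 and 136 CPM (-0.08 ± 0.07). Below the fold threshold, Nfkbib (179 and 178 CPM against 140 and 130 CPM) had -0.40 ± 0.06, and Nfkb2 and Rela had -0.36 each. Against Veh, which stood at 28.1 and 24.6 CPM for Relb, all 10 genes were still called higher in RGFP966_KLA (28.0% of genes were), with log2 values from 0.87 for Rela to 5.29 for Tnfaip3. RGFP966_KLA replicate 2 carried a date stamp 14 days after the rest of its table. The osteoclast markers summed to 438 and 407 CPM in RGFP966_KLA against 205 and 200 CPM in KLA, and their part was not tested.

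The TBK1 inhibitor changed none of the 10 genes beyond 1.5-fold relative to DMSO_KLA by edgeR, against 33.3% of all genes, and DESeq2 called 0. At an unadjusted p below 0.05 there were 8 of the 10, a count without a background. The median absolute log2 fold change was 0.18 for the 10 genes and 0.45 for all genes. Relb stood at 198 and 201 CPM in DMSO_KLA and 274 and 283 CPM in TBK1i_KLA (log2 0.48 ± 0.05 SE, adjusted p = 3.09e-22) and Nfkbie at 325 and 314 CPM against 436 and 457 CPM (0.48 ± 0.04, adjusted p = 1.92e-27). Nfkbiz went the other way, from 918 and 966 CPM to 682 and 730 CPM (-0.42 ± 0.04, adjusted p = 6.44e-27), as did Tnfaip3, from 1558 and 1650 CPM to 1393 and 1466 CPM (-0.17 ± 0.04). None of these libraries overlapped. Nfkb2, at 1433 and 1444 CPM against 1454 and 1489 CPM, had 0.03 ± 0.04. Against DMSO_Veh all 10 were called higher in TBK1i_KLA (26.8% of genes were), from 1.47 for Rela to 5.36 for Tnfaip3. The osteoclast markers summed to 824 and 854 CPM in TBK1i_KLA against 504 and 512 CPM in DMSO_KLA, and their part was not tested.

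In the Pgc1b table, libraries labelled Pgc1b_flox_Cre differed from Pgc1b_flox in none of the 10 genes at vehicle by edgeR (background 0.303%), with 4 at an unadjusted p below 0.05 and 0 by DESeq2. Under KLA, 3 of the 10 were called higher in the libraries labelled Pgc1b_flox_Cre, against 13.2% of genes called higher, and the median log2 of the 10 was 0.42. Nfkbiz stood at 620 and 608 CPM in Pgc1b_flox_KLA and 1231 and 1267 CPM in Pgc1b_flox_Cre_KLA (log2 1.02 ± 0.06 SE, adjusted p = 9.99e-17). Nfkbie stood at 270 and 236 CPM against 440 and 420 CPM (0.76 ± 0.07, adjusted p = 8.51e-11) and Relb at 136 and 117 CPM against 224 and 192 CPM (0.72 ± 0.09, adjusted p = 1.84e-08). All of these libraries labelled with Cre lay above those without it. The headers give 6 h of KLA for Pgc1b_flox_KLA and no time for Pgc1b_flox_Cre_KLA, so equal times could not be checked there. Tnfaip3 (1306 and 1332 CPM against 1873 and 1988 CPM, 0.55 ± 0.06) and Rel (159 and 160 CPM against 213 and 221 CPM, 0.44 ± 0.08) were higher by less than 1.5-fold, whereas the precursor genes Nfkb1 (1069 and 1029 CPM against 914 and 912 CPM, -0.20 ± 0.06) and Nfkb2 (1300 and 1226 CPM against 1068 and 1040 CPM, -0.26 ± 0.06) were lower. The interaction with KLA was called for 4 of the 10, all with a larger rise under KLA in the libraries labelled Pgc1b_flox_Cre, against 22.8% of genes called in either direction, namely Nfkbiz (0.78 ± 0.13, adjusted p = 5.67e-06), Rel (0.76 ± 0.13, adjusted p = 2.01e-05), Relb (0.70 ± 0.14, adjusted p = 1.75e-04) and Nfkbie (0.61 ± 0.14, adjusted p = 5.11e-04). Nfkbie lost this call without Pgc1b_flox_Veh replicate 2 (0.45), Pgc1b_flox_Cre_Veh replicate 1 (0.57) or Pgc1b_flox_KLA replicate 2 (0.54). The Ppargc1b count was not lower in these libraries, which does not test the deletion. The Lyz2 count was lower (4533 and 4393 CPM in Pgc1b_flox_Cre_KLA against 8049 and 8292 CPM in Pgc1b_flox_KLA). The macrophage markers, which include Lyz2, summed to 11061 and 10948 CPM in Pgc1b_flox_Cre_KLA against 16297 and 16384 CPM in Pgc1b_flox_KLA, and their part was not tested.

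**Figure D5:**
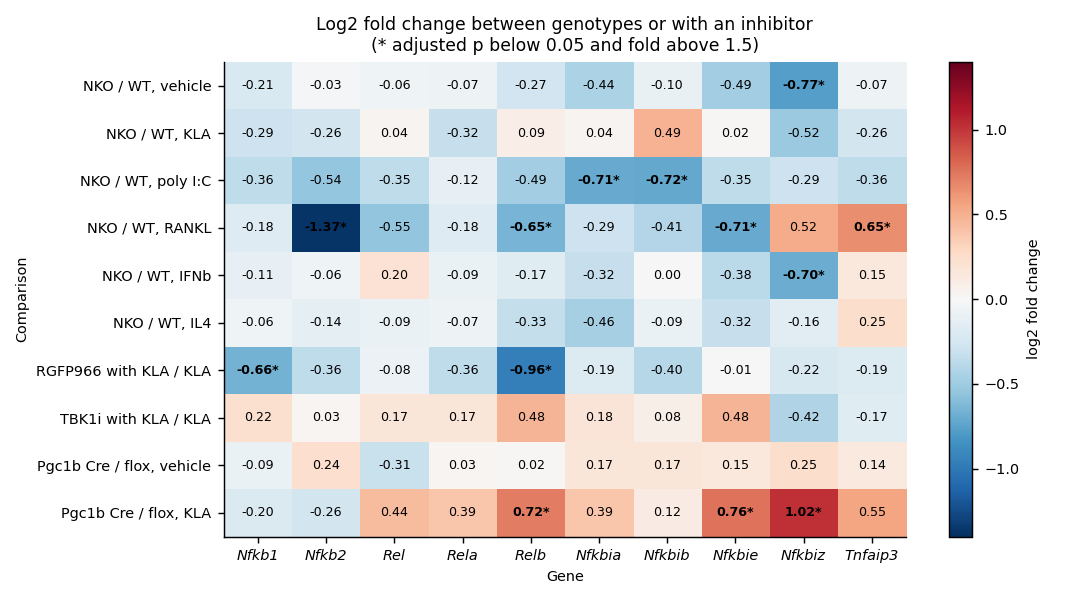
Log2 fold change of each gene (columns) between genotypes or with an inhibitor (rows), printed and in colour, with an asterisk where the adjusted p was below 0.05 and the fold above 1.5. Nfkb2 in NKO against WT at RANKL (-1.37) was the lowest value and Nfkbiz in Pgc1b_flox_Cre_KLA against Pgc1b_flox_KLA (1.02) the highest.

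Other genes of the pathway were counted from 5 lists. Of all genes tested, 25.4% were called higher and 32.3% lower under KLA in WT cells and 22.2% higher and 25.0% lower under poly I:C. Of 9 kinases and activators of the IκB kinase step, 4 rose and 2 fell under KLA in WT cells, led by Map3k8, which encodes the kinase TPL2 (log2 2.43), and Tab2, an adaptor of the kinase TAK1 (1.49). Poly I:C raised 2 of the 9, near the share of all genes. Of 5 TRAF and cIAP genes, which couple receptors to the kinases, KLA and RANKL each raised 4 (24.1% of all genes under RANKL) and poly I:C all 5. Traf1 stood at 10.7 and 12.3 CPM in WT_Veh and 566 and 616 CPM in WT_KLA (log2 5.68), and rose by 2.97 under RANKL. In NKO cells under RANKL, 4 of the 5 were called lower (list median -0.99), against 6.99% of all genes, including Traf1, at 89.3 and 91.4 CPM in WT_RANKL against 15.1 and 13.0 CPM in NKO_RANKL (-2.68), and Birc3, which encodes cIAP2, at 111 and 111 CPM against 55.6 and 52.2 CPM (-1.04).

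Of 6 other IκB and IκB-binding genes, KLA raised 4 and lowered 1, and poly I:C raised 5, against the shares of all genes given above. Bcl3, an atypical IκB that binds p50 and p52, had log2 2.54 under KLA and 1.90 under poly I:C. Of 12 genes of the ubiquitin step, KLA raised 5 and lowered 1, led by Tnip3, an A20-binding protein (4.88), and poly I:C raised 6 and lowered 1, led by Rnf31, the catalytic subunit of the linear ubiquitin ligase (3.06). Under the TBK1 inhibitor 2 of the 12 were higher and 3 lower, against 33.3% of all genes in either direction, with Rnf31 at 271 and 236 CPM in DMSO_KLA and 46.8 and 52.3 CPM in TBK1i_KLA (log2 -2.36).

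Of the NF-kB target genes tested, all 15 were called higher under KLA in WT cells (25.4% of all genes), and 11 of the 15 under poly I:C (22.2%). Their median log2 was 8.93 under KLA and 8.29 with Csf3, Il6 and Nos2 set to a bound, since these were at 3 counts or fewer in the vehicle libraries. Il6 stood at 495 and 494 CPM in WT_KLA and at 2.14 and 1.80 CPM in WT_PolyIC. In NKO against WT under KLA, 11 of the 15 targets were called lower and 2 higher (median -1.30), against 40.0% of all genes in either direction. Cxcl2, a neutrophil chemoattractant, stood at 483 and 500 CPM in WT_KLA and 30.8 and 31.0 CPM in NKO_KLA (log2 -3.99). At vehicle, 4 of the 15 were called lower in NKO and 1 higher (median -0.91), against 3.80% of all genes called lower. In the NKO by KLA interaction, 4 were called lower and 2 higher, against 36.9% of all genes in either direction. Between NKO_KLA and WT_KLA, 0 of the 10 subunit and inhibitor genes were called by edgeR and 0 by DESeq2, with 6 at an unadjusted p below 0.05. The date stamp and sex of the NKO_KLA libraries differed as well. With RGFP966 3 of 16 targets were higher and 5 lower, against 15.8% and 9.54% of all genes. With the TBK1 inhibitor 2 were higher and 5 lower, against 33.3% in either direction. In the libraries labelled Pgc1b_flox_Cre under KLA 5 were higher and 6 lower, against 13.2% and 12.9% of all genes.

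The genes whose pattern was most like that of each member were found from group means of log2(CPM + 1) over the 12 groups of the first table, among 9785 genes averaging at least 5 CPM. The correlation is a description, since the groups share libraries of the same date and ligand. Most of the genes named here changed with Spearman correlation, as given in the last section. Nfkb2 was most like Ptgs2os2 and Bcl3 (Pearson r 0.99 for both), and over the 10 groups of the other tables these had r of 0.95 and 0.97. Their Spearman values over the 12 groups were 0.76 and 0.68, and the nearest genes by Spearman were Tmtc2 (0.94) and Cdc42ep2 (0.93). Nfkb1 was most like Pde4b and Jak2, and Nfkbie most like Il2rg and Icam1, all with r of 0.99 over the 12 groups and of 0.94 to 0.99 over the 10. Tnfaip3 was most like Tiparp (1.00 and 0.94) and Ccnj (0.99 and 0.85), Nfkbia most like Lpar1 (0.99 and 0.98) and Phf6 (0.99 and 0.71), and Nfkbib most like Ppp1r15b (0.99 and 0.89) and the target gene Nos2 (0.99 and 0.98). Rel was most like Tet2 (0.99 and 0.97) and Stx6 (0.98 and 0.92). For Rela the nearest were Mfsd7a (0.99 and 0.87) and Rnf214 (0.99 and 0.49), and for Relb Ppp6r1 (0.99 and 0.68) and Apobec3 (0.99 and 0.75). The genes nearest to Nfkbiz, Vav1 (0.98) and Rab29 (0.97), had r of only 0.31 and 0.22 over the 10 groups. Those 10 groups were all vehicle or KLA groups, with or without an inhibitor. Ranked by r over them among the 9785 genes, the named genes ran from 22 (Icam1 for Nfkbie) to 4156 (Rab29 for Nfkbiz). Ptgs2os2 and Bcl3 ranked 384 and 187 for Nfkb2, so a high r over these groups did not place a gene among the nearest.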

How the data were processed

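RNA-seq counts were taken from 4 tables. Per the file headers and the study's methods, the authors aligned reads to mm10 with STAR and made the deposited counts with HOMER, as raw whole-number counts over exons, condensed to 1 transcript per gene. The headers give no strand option, so reads of a gene and an overlapping antisense gene could not be told apart here. Libraries were grouped by their labels. No table held columns of other samples.

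Counts were tested per table with edgeR 4.0.16 in R 4.3.3 (filterByExpr, trimmed mean of M-values, robust quasi-likelihood F-test, 2-sided, no replicate block, all libraries of the table in the fit), with Benjamini-Hochberg adjustment over 13407, 12196, 12205 and 12332 genes. An exact permutation test of 2 against 2 libraries cannot go below p = 0.333 and was not used. A fold above 1.5 at an adjusted p below 0.05 was called, as in the study's own thresholds. SE is the absolute log2 fold change divided by the square root of F. The scripts were tested on simulated data. Every pair of replicates differed by more than counting noise (chi-square per degree of freedom at least 1.55), and none was identical. The value was highest, at 6.16, for WT_Veh, the reference of the ligand comparisons in WT cells.

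The genes, gene lists, markers and tests were chosen with earlier results of these data known. All 10 genes, the label genes, the 2 called genes of each list with the largest change and the 2 genes most alike in pattern to each member were named. The limit of 3 counts covers counting error only, whereas SD and SE take in the spread between libraries. Alternatives were DESeq2 1.42.0 and its size factors, no filter or a filter on a mean of 5 CPM, fits of the compared groups only, no fold threshold, a replicate block and leaving out each library. A block with the replicate numbers of the Pgc1b table crossed was added after seeing the data. Promoter sequences and starts are from RefSeq on GRCm38.p6.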

Additional observations from a re-analysis of the deposited data

Results flagged for a closer look

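Members whose genotype effect differed between a ligand and vehicle are listed here, with the log2 difference of the 2 effects and its SE (edgeR interaction term, called at an adjusted p below 0.05 and above 1.5-fold). For NCoR, Nfkb2 under RANKL had -1.34 ± 0.09. It stood at 181 and 176 CPM in WT_RANKL against 71.2 and 75.0 CPM in WT_Veh, and at 63.8 and 74.3 CPM in NKO_RANKL against 71.5 and 71.7 CPM in NKO_Veh. The RANKL and vehicle libraries differed in ligand, time, date stamp and culture, which cannot be told apart. Nfkbiz had 1.29 ± 0.25 and Tnfaip3 0.72 ± 0.09 under RANKL. The neutrophil and fibroblast marker sums given in the report were higher in NKO_RANKL than in WT_RANKL, and their part was not tested.

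Nfkbib had 0.59 ± 0.11 under KLA and -0.62 ± 0.11 under poly I:C. The KLA value rests on libraries whose genotype, date stamp and sex cannot be told apart, and the poly I:C value on libraries of the same stamp. Each fell below 1.5-fold without certain single libraries, which the report names. Against the other KLA references, the NKO_KLA difference in Nfkbib ran from -0.08 to 0.40 (log2).

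In the libraries labelled Pgc1b_flox_Cre, the Ppargc1b count was not lower, which does not test the deletion. There the KLA effect was larger for Nfkbiz (0.78 ± 0.13), Rel (0.76 ± 0.13), Relb (0.70 ± 0.14) and Nfkbie (0.61 ± 0.14). At vehicle none of the 4 was called between the same labels by edgeR, with 4 of the 10 genes at an unadjusted p below 0.05 and 0 called by DESeq2.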

How the results depend on the processing

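No member value that was called reversed its sign under any alternative. Of 3470 member values under other settings, 3355 stayed on their side of the threshold, 17 fell below it and 98 rose above it, most of these with the fold threshold removed. These include 70 sign changes of values called under neither setting, none over 0.17 (absolute log2) in the reported fit. DESeq2 size factors moved the median of all genes by at most 0.07 (log2). The number of members called was equal in 298 of 347 recounts.

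The share of all genes called without the fold threshold was not computed, so the counts that follow have no background. Without the fold threshold the members called numbered 9 for RANKL, 2 for IFNb and 6 for IL4 in WT cells. For NKO against WT they numbered 5 at vehicle, 6 at KLA, 9 at RANKL, 8 at poly I:C, 3 at IFNb and 4 at IL4. For the interactions they numbered 7 with KLA, 4 with RANKL, 3 with poly I:C and 1 with IL4. They numbered 8 for RGFP966_KLA against KLA, 9 for Pgc1b_flox_Cre_KLA against Pgc1b_flox_KLA, 7 for its interaction and 8 for TBK1i_KLA against DMSO_KLA. In the joint fit they numbered 8 against KLA, 8 against Pgc1b_flox_KLA and 4 against DMSO_KLA.

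The NKO by KLA interaction, with 1 member called (Nfkbib, 0.59), had 0 under DESeq2 size factors (0.56), under the filter on a mean of 5 CPM (0.58), under DESeq2 (0.56) and in the fit of the compared groups only (0.56). Leaving out 1 library at a time gave 0 to 2 members for NKO against WT at vehicle, for the NKO by KLA interaction and for the NKO by poly I:C interaction. The 0 at vehicle and with poly I:C came without WT_Veh replicate 2 and the 0 with KLA without NKO_KLA replicate 2. The 2 in each came without WT_Veh replicate 1, and also without NKO_Veh replicate 2 at vehicle and with KLA and without WT_PolyIC replicate 2 with poly I:C. It gave 0 to 1 for Pgc1b_flox_Cre_Veh against Pgc1b_flox_Veh, with the 1 arising without Pgc1b_flox_Veh replicate 2, and 0 to 1 for NKO_KLA against Pgc1b_flox_KLA, with the 0 arising without NKO_KLA replicate 1 or Pgc1b_flox_KLA replicate 2.

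A replicate block left the same number of members called in every comparison, for example 10 for WT KLA and 4 for NKO against WT at RANKL. Same-numbered samples did not deviate together (highest correlation 0.11), so the numbers did not pair the samples, and the crossed pairing of the Pgc1b table also changed no count (10, 0, 3 and 4). With Spearman in place of Pearson correlation, 1 of the 20 genes named as most alike stayed. CPM without TMM scaling moved group means by 0.695 to 1.41 times, with the same highest group for 7 of 10 members and the same lowest for 8, and scaling all 44 libraries together gave the same highest group for 9 and the same lowest for 7.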
